A study of Mus musculus with 7 samples.

Results

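The collagen genes of the mouse ovary were followed in RNA-seq libraries from control and PAMH F3 mice. A gene was taken as a collagen gene if its deposited identifier is protein-coding in the GENCODE M21 annotation and its symbol has the form Col, a number, a, a number. This gave 44 genes of 55487 gene identifiers, of which 21903 are protein-coding, and they lie on 15 chromosomes. They were sorted into 11 fibrillar collagens, 6 basement membrane collagens and 27 others. All mice were C57BL/6J females whose ovaries were taken at diestrus on postnatal day 60, with 1 library per mouse. The 3 CNTR mice were offspring of dams that had received PBS from E16.5 to E18.5. The 4 PAMH F3 mice were the third generation from dams that had received human anti-Müllerian hormone (AMH) at 0.12 mg/kg per day on the same days, bred within the PAMH line with no further AMH. AMH is the gonadal hormone that is raised in polycystic ovary syndrome, and the prenatal exposure models that condition. CNTR mice were the first generation after injection, so treatment lineage and generation cannot be told apart. In whole ovary RNA, fewer cells of a type and less RNA per cell cannot be told apart either.

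Collagens are the main structural proteins of the extracellular matrix, built from chains that wind around each other into a rope-like helix. Fibrillar collagens (types I, II, III, V, XI, XXIV and XXVII) assemble into the fibrils of the ovarian stroma, the theca and the capsule. Type IV collagen forms the sheet that underlies the granulosa layer, the surface epithelium and vessels, and its chains combine in fixed sets. Type VI collagen forms beaded filaments around cells, FACIT collagens decorate fibrils, multiplexins sit at basement membranes, and further types form networks or span the cell membrane. The follicle wall is remodelled with each cycle, so that these genes are read in stroma, theca, granulosa and vessel cells together.

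Several collagen genes that encode partner chains are neighbors in the genome (GRCm38). All 6 type IV genes are arranged in head-to-head pairs, with the genes read away from each other from a shared stretch of DNA. The annotated starts of Col4a1 and Col4a2 on chromosome 8 overlap by 22 bases, those of Col4a4 and Col4a3 on chromosome 1 are separated by 71 bases, and those of Col4a6 and Col4a5 on the X chromosome by 1308 bases. Col3a1 and Col5a2 end toward each other on chromosome 1 with 24614 bases between them. Col6a2 and Col6a1 lie on the same strand of chromosome 10 with 85161 bases between them, and Col6a6, Col6a5 and Col6a4 follow each other on chromosome 9 with gaps of 27917 and 28810 bases. Col9a1 and Col19a1 lie 9205 bases apart on chromosome 1. No other protein-coding gene is annotated between the members of any of these pairs. RefSeq promoter windows of 300 bases (250 before and 50 after the transcript start, GRCm38.p6) were matched for 35 of the 44 genes. Those of 4 genes are shown, because the type IV pairs share their start regions and because Col8a2 had the lowest p value of the collagen genes between the groups. The windows are chr8:11312777-11313076 on the minus strand for Col4a1, chr8:11312555-11312854 on the plus strand for Col4a2, chr1:82586800-82587099 on the minus strand for Col4a4 and chr4:126286544-126286843 on the plus strand for Col8a2. Capitals mark the 78 bases that the Col4a1 and Col4a2 windows share on opposite strands, the 71 bases between the starts of Col4a4 and Col4a3, and the GGGCGG letters of Col8a2 on either strand.
Col4a1: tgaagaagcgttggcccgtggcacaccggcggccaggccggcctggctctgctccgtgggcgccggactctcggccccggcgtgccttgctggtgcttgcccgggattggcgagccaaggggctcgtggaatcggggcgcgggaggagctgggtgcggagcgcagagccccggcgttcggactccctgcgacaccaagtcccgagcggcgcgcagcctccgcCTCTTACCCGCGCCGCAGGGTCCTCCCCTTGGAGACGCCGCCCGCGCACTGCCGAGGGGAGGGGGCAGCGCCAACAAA
Col4a2: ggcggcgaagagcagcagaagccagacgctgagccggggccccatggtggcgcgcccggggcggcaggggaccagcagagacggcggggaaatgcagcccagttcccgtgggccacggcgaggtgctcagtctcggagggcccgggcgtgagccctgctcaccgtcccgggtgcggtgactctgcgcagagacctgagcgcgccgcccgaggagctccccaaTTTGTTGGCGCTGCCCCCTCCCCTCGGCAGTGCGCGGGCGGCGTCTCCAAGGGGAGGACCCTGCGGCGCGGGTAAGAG
Col4a4: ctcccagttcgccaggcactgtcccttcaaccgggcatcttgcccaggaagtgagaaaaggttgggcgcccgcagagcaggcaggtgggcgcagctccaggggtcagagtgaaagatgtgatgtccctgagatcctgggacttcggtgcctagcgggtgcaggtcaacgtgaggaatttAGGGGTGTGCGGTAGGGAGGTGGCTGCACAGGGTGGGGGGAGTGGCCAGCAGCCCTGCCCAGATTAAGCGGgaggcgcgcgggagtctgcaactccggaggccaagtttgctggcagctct
Col8a2: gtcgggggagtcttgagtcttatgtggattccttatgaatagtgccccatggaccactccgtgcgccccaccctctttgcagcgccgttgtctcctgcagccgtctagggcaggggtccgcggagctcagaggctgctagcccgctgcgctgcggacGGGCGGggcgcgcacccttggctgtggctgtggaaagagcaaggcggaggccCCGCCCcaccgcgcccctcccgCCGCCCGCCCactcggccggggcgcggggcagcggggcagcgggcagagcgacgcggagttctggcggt

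The letters GGGCGG, the core of a GC box, were present on either strand in 22 of the 35 collagen windows (62.9%), against 35.7% of all 32851 windows of the table. CCAAT was present in 12 (34.3%) against 37.4%, and TATAAA in 5 (14.3%) against 13.6%. Among the 8 fibrillar windows, TATAAA was found in 2, and it was found in 0 of the 5 basement membrane windows. The collagen windows had a median content of guanine and cytosine of 60%, and their share of GGGCGG was not compared with that of windows of like content. These counts describe letters in a window and do not locate a bound site.

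The libraries held between 32158174 and 35485021 gene counts each. Markers of granulosa cells (Amh, Foxl2, Fshr, Cyp19a1, Inha) summed to between 1606 and 2585 CPM (library-scaled counts, normalized by edgeR's TMM factors) and those of theca and luteal cells (Cyp17a1, Star, Cyp11a1, Lhcgr, Ptgfr) to between 4232 and 7218 CPM, so the defining markers of the ovary were present in every library. The 4 oviduct epithelium markers (Ovgp1, Foxj1, Ccdc153, Tekt1) summed to between 3047 and 5361 CPM in CNTR and between 2641 and 6477 CPM in PAMH F3, and the 4 adipocyte markers (Adipoq, Plin1, Cidec, Lep) to between 121 and 345 CPM and between 52.0 and 249 CPM. These oviduct and adipocyte genes were thus measured in both groups, in amounts that differed between mice. The granulosa, theca and luteal, and oviduct sums were mostly those of Inha, Cyp11a1 and Ovgp1. Their means over the libraries were 1722, 4132 and 4085 CPM. The 5 stromal fibroblast markers (Pdgfra, Dcn, Lum, Dpt, Tcf21) summed to between 1243 and 1459 CPM in CNTR and between 1047 and 1331 CPM in PAMH F3. Endothelial markers (Pecam1, Cdh5, Tek, Kdr) summed to between 186 and 228 CPM against between 154 and 236 CPM. Pericyte markers (Rgs5, Cspg4, Pdgfrb) gave between 164 and 231 CPM against between 135 and 208 CPM. Leukocyte, oocyte, smooth muscle and surface epithelium markers were present with overlapping ranges. Cartilage markers (Acan, Matn1, Hapln1) summed to no more than 5.54 CPM and skeletal muscle markers (Ckm, Acta1, Myh4) to no more than 1.59 CPM. In the edgeR fit described below, all 5 stromal fibroblast, 4 endothelial, 3 pericyte, 5 surface epithelium and 4 adipocyte markers had estimates below 0. Their median log2 fold changes of PAMH F3 over CNTR were -0.29, -0.18, -0.32, -0.18 and -0.58. Granulosa, theca and luteal, oocyte, smooth muscle, oviduct and leukocyte markers went in both directions. Over all genes tested, 48.3% of estimates were below 0, and 0 markers passed an adjusted p of 0.05. In the fit without surrogate variables, also given below, the same medians were -0.22, -0.12, -0.27, -0.09 and -0.36. The surface epithelium marker Msln was then just above 0 (0.006), and 49.1% of all estimates were below 0. The part of these cell types in the results below was not tested.

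The collagen genes together took between 0.399% and 0.611% of the gene counts of a library, with a mean of 0.468% ± 0.079 (SD, n = 7). Fibrillar genes accounted for 0.205% ± 0.039, basement membrane genes for 0.0975% ± 0.018 and type VI genes for 0.123% ± 0.019. Counts were concentrated in few genes, since Col3a1, Col1a2, Col6a1 and Col4a1 held 54.0% of all collagen counts and 10 genes held 80.2%. CNTR libraries gave 0.447%, 0.611% and 0.419%, and PAMH F3 libraries gave 0.541%, 0.457%, 0.404% and 0.399%. The ranges of the groups overlap, and CNTR replicate 2 and PAMH F3 replicate 1 were the highest of their groups.

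**Figure D1:**
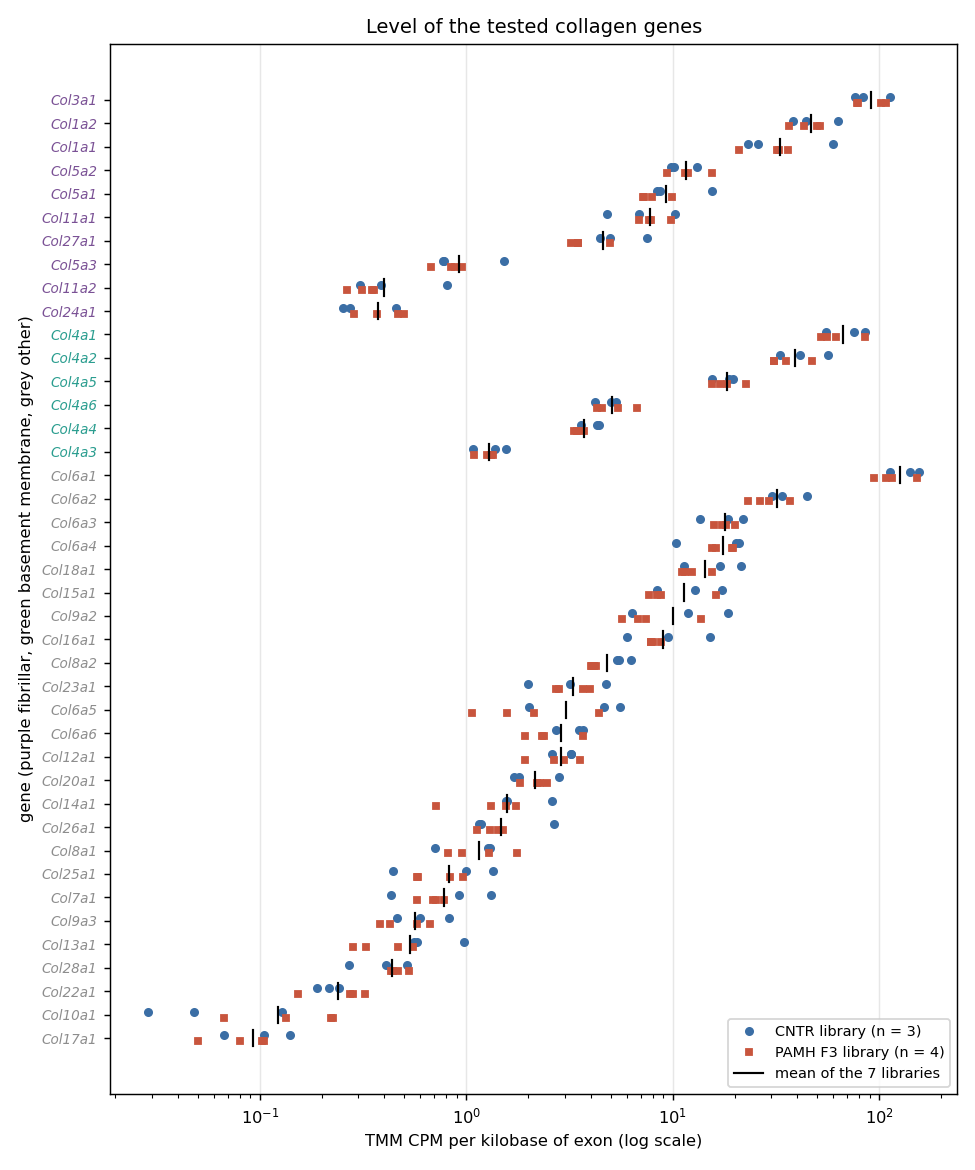
Level of each of the 41 tested collagen genes in every library, as TMM CPM per kilobase of exon on a log axis, with fibrillar, basement membrane and other genes in separate blocks sorted by their mean over the 7 libraries (black line). Levels run from 0.0927 for Col17a1 to 125 for Col6a1, and CNTR circles and PAMH F3 squares overlap for all genes except Col8a2 and Col13a1.

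Levels of different genes were compared as CPM per kilobase of exon, averaged over the 7 libraries. Col6a1, a core chain of type VI collagen, had the highest level at 125 ± 23.6 (SD, n = 7), followed by Col3a1 at 91.2 ± 15.7, Col4a1 at 67.1 ± 14.4 and Col1a2 at 46.7 ± 9.04. Each of these first 3 exceeded the next gene by more than the SD over libraries and in 7 of 7 libraries. Col1a2, Col4a2 (39.2 ± 9.55), Col1a1 (33.0 ± 13.1) and Col6a2 (32.1 ± 7.14) followed, and among these 4 no gene differed from the next beyond that spread. A step beyond the spread separated Col6a2 from Col4a5 at 18.2 ± 2.52. From Col4a5 down to Col11a1 (7.73 ± 1.86), through Col6a3, Col6a4, Col18a1, Col5a2, Col15a1, Col9a2, Col5a1 and Col16a1, no gene differed from the next beyond the spread. Within the type IV family the order was Col4a1, Col4a2, Col4a5, Col4a6 (5.08 ± 0.881), Col4a4 (3.73 ± 0.430) and Col4a3 (1.29 ± 0.168). The chains of the ubiquitous type IV network thus stood above those of the networks known from specialized basement membranes such as the glomerulus. The order of the top genes depended on the length used. With the longest protein-coding transcript in place of all annotated exons, Col3a1 came first and Col6a1 next, and with the median transcript length Col3a1 was followed by Col4a1 and Col1a1.

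At the other end, Col2a1, the main collagen of cartilage, and the FACIT genes Col9a1 and Col19a1 had between 0 and 5 counts per library and were left out of the tests by the filter on low counts. The other 41 genes, 10 fibrillar, 6 basement membrane and 25 others, passed it. Col9a2, another cartilage-associated gene, stood in contrast at 10.1 ± 4.83 CPM per kilobase, although its partner chains Col9a1 and Col9a3 stood at 0.0100 and 0.562. Col11a1 was at 7.73 and its partner Col11a2 at 0.398. Both genes were measured in libraries in which the 3 cartilage markers summed to between 2.06 and 5.54 CPM.

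The groups were compared with edgeR's quasi-likelihood F test with 2 surrogate variables (covariates estimated from the data for variation that the groups do not explain) and Benjamini-Hochberg adjustment over the 18779 genes tested. None of the 41 collagen genes passed an adjusted p of 0.05 (0 called), and neither did any other gene tested (0%). The lowest adjusted p of a collagen gene was 0.366, for Col8a2. At an unadjusted p under 0.05, 6 of the 41 genes differed, against 7.64% of all genes tested. Col6a4 and Col10a1 were higher in PAMH F3 (background 3.75%), and Col8a2, Col6a6, Col14a1 and Col4a4 were lower (background 3.89%). DESeq2 with the same surrogate variables called 1 collagen gene, Col8a2, where 0.749% of the genes with an adjusted p were called. DESeq2 put 6 at an unadjusted p under 0.05 (background 5.82%), 3 higher (2.75%) and 3 lower (3.07%). These were not the same 6 genes, since Col11a1, higher, stood in the place of Col4a4. TMM CPM values of CNTR and PAMH F3 were fully separated for 2 of the 41 genes, Col8a2 and Col13a1, both lower in PAMH F3, against 4.25% of all genes tested (1.85% higher and 2.4% lower).

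**Figure D2:**
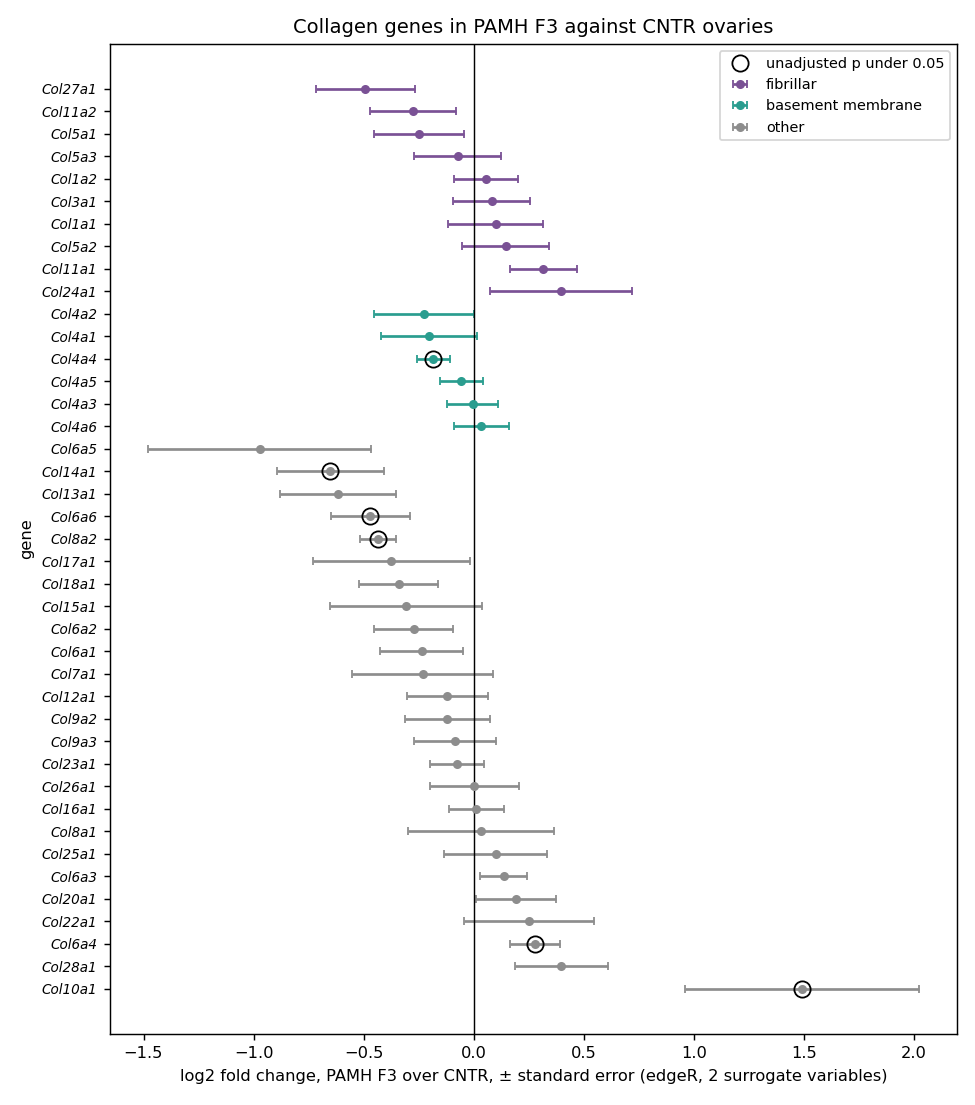
Log2 fold change of PAMH F3 over CNTR for the 41 tested collagen genes by class, with bars of 1 standard error, from the edgeR fit with 2 surrogate variables, and black rings around the 6 genes with an unadjusted p under 0.05. Estimates run from -0.97 for Col6a5 to 1.49 for Col10a1, and most lie within 0.5 of zero on either side.

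The median log2 fold change of the collagen genes was -0.08, beside 0.00 over all genes tested, and 24 of 41 estimates were below 0, beside 48.3% of all genes. Without surrogate variables the median was -0.25 and 29 of 41 estimates were below 0, beside 49.1% of all genes, and 4 genes had an unadjusted p under 0.05 (Col8a2, Col13a1, Col27a1 and Col4a4, all lower). The background was then 3.95%, of which 1.11% were higher and 2.84% lower. With a correction for GC content and length in the fit without surrogate variables, the median was -0.045 and 26 of 41 estimates were below 0. By class, the median with surrogate variables was 0.07 for fibrillar genes, with 6 above and 4 below 0 and 0 at an unadjusted p under 0.05. It was -0.12 for basement membrane genes, with 1 above and 5 below, of which Col4a4 had an unadjusted p under 0.05. Among the 25 other genes it was also -0.12, with 10 above and 15 below 0. The fibrillar gene Col27a1 had -0.49 ± 0.23 with surrogate variables and -0.58 ± 0.20 without them. It was below 0 in all 27 fits tried, which reuse the same libraries, and had an unadjusted p under 0.05 in 16 of them. The number of genes at an unadjusted p under 0.05 depended on single libraries. It was 16 (3 higher, 13 lower) without PAMH F3 replicate 1, beside 10.6% of all genes, and 11, all lower, without CNTR replicate 1, beside 17.0%. Without PAMH F3 replicate 2 it was 3, beside 4.34%. In each of these fits 0 collagen genes passed the adjusted threshold, with lowest adjusted p values of 0.0691, 0.0600 and 0.997.

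Col8a2 encodes a short chain of the network-forming type VIII collagen, known from the basement membrane of the corneal endothelium. It lies on chromosome 4 (GRCm38, 126286793 to 126314330, plus strand). Its levels were 24.6, 28.1 and 24.1 CPM in the CNTR libraries and 18.1, 19.0, 18.3 and 18.6 CPM in the PAMH F3 libraries. All PAMH F3 libraries lay below all CNTR libraries, and the PAMH F3 values varied little (25.6 ± 2.15, SD, n = 3, against 18.502 ± 0.420, n = 4). The log2 fold change was -0.44 ± 0.08 (SE), with an adjusted p of 0.366 by edgeR and of 0.0144 by DESeq2 with 2 surrogate variables. The exact two-sided permutation test over the 35 divisions of the libraries gave p = 0.0286, the smallest it can give. Col8a2 had an unadjusted p under 0.05 in 27 of the 27 fits tried, always lower in PAMH F3, with estimates between -0.51 and -0.29. These fits reuse the same libraries. Col8a2 had the lowest p of the collagen genes, so neither this count nor the unadjusted permutation p is separate evidence. Its partner Col8a1 was at 10.2, 9.99 and 5.54 CPM in CNTR and 13.8, 7.47, 6.36 and 10.1 CPM in PAMH F3, where the groups overlapped (log2 fold change 0.03 ± 0.33).

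Col13a1, a collagen that spans the cell membrane and takes part in cell adhesion, was the other gene without overlap. It was at 2.56, 4.50 and 2.66 CPM in CNTR and at 2.15, 1.29, 2.54 and 1.51 CPM in PAMH F3. The gap was narrow, with PAMH F3 replicate 3 just below CNTR replicate 1, and CNTR replicate 2 stood well above the others. The log2 fold change was -0.62 ± 0.27 with an unadjusted p of 0.0520 (edgeR, adjusted p = 0.653), and the exact permutation test gave p = 0.0571.

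Col14a1, a FACIT that binds fibril surfaces, was at 18.2, 10.9 and 10.99 CPM in CNTR and at 12.2, 9.28, 10.9 and 5.02 CPM in PAMH F3. The difference rested on CNTR replicate 1 at the top and PAMH F3 replicate 4 at the bottom, with the other 5 libraries between 9.28 and 12.2 CPM. The log2 fold change of -0.65 ± 0.24 (edgeR, adjusted p = 0.626) became -0.20 without CNTR replicate 1. Col6a6, which can take the place of the long chain in type VI collagen, was at 32.2, 24.9 and 33.6 CPM in CNTR and at 33.8, 21.3, 17.7 and 21.9 CPM in PAMH F3. PAMH F3 replicate 1 was the highest of all 7, while the other PAMH F3 libraries lay below every CNTR library. Its log2 fold change was -0.47 ± 0.18 (edgeR, adjusted p = 0.629).

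Col4a4, a chain of the specialized type IV network, was at 38.1, 45.4 and 46.6 CPM in CNTR and at 39.3, 35.1, 36.3 and 36.5 CPM in PAMH F3. The groups overlapped only through CNTR replicate 1 and PAMH F3 replicate 1. Its log2 fold change was -0.18 ± 0.07 (edgeR, adjusted p = 0.640).

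Of the 2 genes on the higher side, Col6a4 depended on 1 library and on the surrogate variables. It was at 88.7, 173 and 178 CPM in CNTR and at 167, 138, 131 and 166 CPM in PAMH F3, so that CNTR replicate 1 lay far below the other 6. The log2 fold change was 0.28 ± 0.11 (edgeR, adjusted p = 0.641), and it was -0.24 without CNTR replicate 1. Col10a1, the collagen of hypertrophic cartilage, had only 3, 5 and 13 counts in CNTR and 25, 7, 15 and 22 counts in PAMH F3, or 0.0904, 0.150 and 0.402 CPM against 0.708, 0.211, 0.418 and 0.690 CPM. The groups overlapped, and the log2 fold change was 1.49 ± 0.53 (edgeR, adjusted p = 0.599). Col10a1 lies within Nt5dc1 on the opposite strand, a gene with between 671 and 872 counts per library, and the strand setting of the counting is not given in the sources used here, so a few reads of Nt5dc1 cannot be told apart from those of Col10a1.

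**Figure D3:**
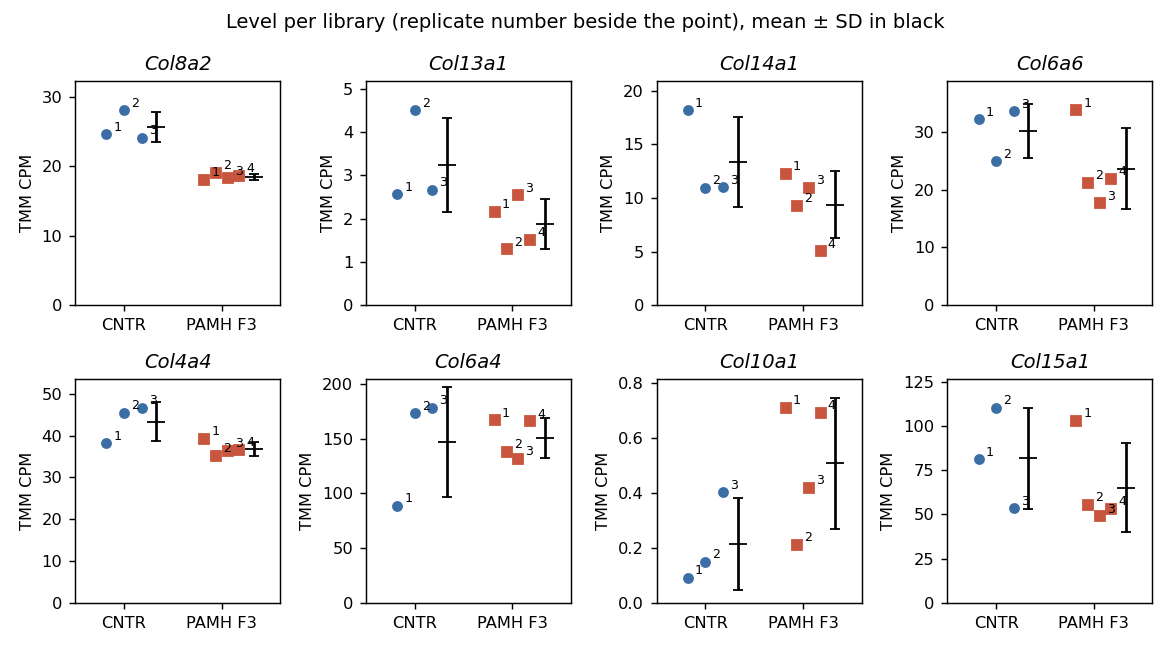
TMM CPM in each library (numbers give the replicate) for the 7 collagen genes with an unadjusted p under 0.05 or without overlap and for Col15a1, with the mean ± SD of CNTR (n = 3) and PAMH F3 (n = 4) in black. The 4 PAMH F3 points of Col8a2 lie between 18.1 and 19.0 CPM, all below the lowest CNTR point at 24.1 CPM.

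The major fibrillar genes overlapped between the groups. Col1a1, the major type I chain, was at 151, 393 and 169.5 CPM in CNTR and at 236, 210.4, 216 and 137 CPM in PAMH F3 (log2 fold change 0.10 ± 0.22). Col1a2, its partner chain, was at 475, 782 and 549 CPM and at 621, 642, 538 and 456 CPM, with 0.06 ± 0.14. CNTR replicate 2 was the highest library for both. Col3a1, the type III chain of distensible tissue, was at 815, 1106 and 746 CPM and at 1062, 997, 764 and 778 CPM, with 0.08 ± 0.17. Col5a1, a type V chain that starts fibrils and limits their width, was at 71.0, 131 and 73.5 CPM and at 84.1, 67.1, 61.6 and 60.8 CPM, with -0.25 ± 0.20. Its partner Col5a2 was at 97.8, 125 and 94.3 CPM and at 149, 113, 90.1 and 109.8 CPM, with 0.14 ± 0.20. For Col5a1 the highest library was CNTR replicate 2, and for Col5a2 it was PAMH F3 replicate 1. The adjusted p values of these 5 genes, by edgeR, were between 0.819 and 0.961.

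The type IV genes likewise overlapped. Col4a1 was at 560.4, 638 and 411 CPM in CNTR and at 633, 417, 388 and 459 CPM in PAMH F3, and Col4a2 at 272, 373 and 219 CPM and at 312, 205, 205 and 233 CPM. For both, CNTR replicate 2 and PAMH F3 replicate 1 were the highest of their groups, and the log2 fold changes were -0.20 ± 0.22 and -0.23 ± 0.23. Col4a3 was at 10.8, 13.7 and 15.5 CPM and at 13.5, 10.9, 12.5 and 13.2 CPM, with 0.00 ± 0.12. Col4a5 was at 131, 105 and 126 CPM and at 153, 114, 104 and 123 CPM, with -0.06 ± 0.10. Col4a6 was at 40.0, 33.5 and 42.4 CPM and at 53.8, 36.2, 34.3 and 43.5 CPM, with 0.03 ± 0.12. PAMH F3 replicate 1 was the highest library for Col4a5 and Col4a6, and CNTR replicate 2 was the lowest of its group for both.

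Among the other classes, Col6a1 was at 615, 682 and 492 CPM in CNTR and at 663, 507, 414 and 473 CPM in PAMH F3, and Col6a2, which joins it in every type VI molecule, at 281, 372 and 251 CPM and at 307, 244, 220.4 and 193 CPM. Their log2 fold changes were -0.24 ± 0.19 and -0.27 ± 0.18. Col6a3, the long chain of the same molecule, was at 163, 262 and 222 CPM and at 216, 240.04, 189.8 and 207 CPM, with 0.14 ± 0.11. The multiplexins were both highest in CNTR replicate 2. Col15a1 was at 81.2, 110.2 and 53.5 CPM and at 103, 55.5, 48.9 and 53.2 CPM (-0.31 ± 0.35), and Col18a1, the source of endostatin, at 118, 151 and 79.5 CPM and at 109, 80.6, 87.1 and 77.8 CPM (-0.34 ± 0.18). Of the FACIT genes, Col16a1 was at 40.4, 102 and 64.0 CPM and at 53.9, 59.0, 52.9 and 53.1 CPM (0.01 ± 0.12), and Col9a2 at 19.7, 57.5 and 36.8 CPM and at 17.6, 20.9, 42.6 and 23.0 CPM (-0.12 ± 0.19). Both showed a wide spread within CNTR, from replicate 1 as the lowest to replicate 2 as the highest. Without surrogate variables the estimates of Col16a1 and Col9a2 were -0.33 ± 0.25 and -0.55 ± 0.38.

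CNTR replicate 2 had the highest level of 22 of the 41 collagen genes, against 25.1% of all genes tested. The genes concerned were mostly those rich in guanine and cytosine (GC). The median GC content of the longest transcript was 55.2% for the collagen genes and 49.3% for all genes tested. CNTR replicate 2 was highest for 19 of the 20 collagen genes above that collagen median and for 3 of the 21 at or below it. Over all genes tested, split at the same GC content, it was highest for 64.4% above and 15.5% at or below. The median log2 deviation of this library was 0.73 for the collagen genes above that GC content, against 0.31 for all genes above it. At or below it, the median was 0.19 for the collagen genes, against -0.046 for all genes. Across all genes, the log2 deviation of this library had a slope of 0.30 for each 10% of GC, while the slopes of the other 6 libraries lay between -0.12 and 0.05. Without CNTR replicate 2 the median log2 fold change of the collagen genes was -0.02 with surrogate variables and -0.04 without them. PAMH F3 replicate 1 was highest for 8 further genes, and its median deviation over the collagen genes was 0.21, against between -0.15 and -0.14 for the other PAMH F3 libraries. In that library the stromal fibroblast, endothelial and pericyte markers summed to 1318, 236 and 208 CPM, against between 1047 and 1331, between 154 and 189 and between 135 and 159 CPM in replicates 2 to 4 of that group. The part of GC content and of cell makeup in the differences between groups was not tested.

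**Figure D4:**
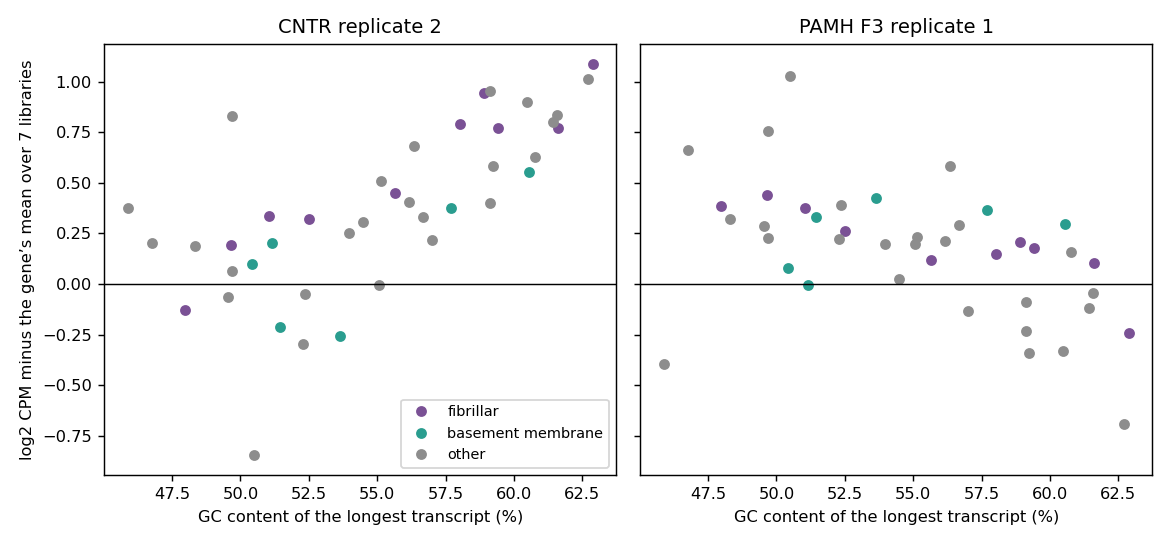
Deviation of each tested collagen gene's log2 CPM from its mean over the 7 libraries, against the GC content of its longest transcript, for CNTR replicate 2 and PAMH F3 replicate 1. In CNTR replicate 2 the deviation has a median of 0.73 for the 20 genes above 55.2% GC and of 0.19 for the 21 others, and in PAMH F3 replicate 1 most genes lie above zero.

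Chains that form 1 molecule or 1 kind of fibril, or whose genes are neighbors, were compared across the 7 libraries in log2 CPM for 14 pairs in which both genes were tested. Exact permutation p values over all orders of the libraries were adjusted over the 14 pairs. Col4a1 and Col4a2, the head-to-head pair that shares its start region, had Pearson's r = 0.96 (adjusted permutation p = 0.00833) and Spearman's rho = 0.964 (adjusted permutation p = 0.0389). The ratio of their levels per kilobase was 1.72 ± 0.108 (SD, n = 7) and stayed between 1.52 and 1.83. Col4a5 and Col4a6 had r = 0.95 (adjusted permutation p = 0.0130) and a ratio of 3.60 ± 0.196. Both ratios varied little from mouse to mouse, with coefficients of variation of 6.29% and 5.45%. For Col1a1 and Col1a2, r was 0.94 (adjusted permutation p = 0.0130), for Col15a1 and Col18a1 0.91 and for Col6a1 and Col6a2 0.89 (0.0310 and 0.0306). Col9a2 and Col9a3 gave r = 0.86 and Col3a1 and Col5a2 also 0.86 (adjusted permutation p = 0.0333 and 0.0310). The remaining 7 pairs did not pass 0.05. Col1a1 with Col3a1 gave r = 0.78 and the third head-to-head pair, Col4a3 with Col4a4, 0.75. Col5a1 with Col5a2 gave 0.55, Col6a2 with Col6a3 0.36 and Col6a1 with Col6a3 0.22. Col11a1 with Col11a2 gave -0.04 and Col8a1 with Col8a2 -0.07. By Spearman's rho 2 pairs passed, Col4a1 with Col4a2 and Col6a1 with Col6a2 (rho = 0.929, adjusted permutation p = 0.0472).

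With the group means taken out, 9 pairs passed, Col4a3 with Col4a4 (r = 0.93) and Col5a1 with Col5a2 (r = 0.82) among them. The permutation here ran over all orders of the libraries, across the groups. Values centered within a group cannot be swapped freely between groups, so this count is approximate. With levels corrected for GC content and length, 3 pairs passed, namely Col4a1 with Col4a2 (r = 0.99), Col4a5 with Col4a6 (0.95) and Col1a1 with Col1a2 (0.91). After leaving out the 2 libraries farthest from the median of the first gene, 5 libraries remained. The smallest permutation p is then 0.00833, which becomes 0.117 for a single pair adjusted over 14, so the adjusted test says little here and only r is given. Pearson's r was then 0.97 for Col4a1 with Col4a2, 0.90 for Col15a1 with Col18a1, 0.86 for Col4a5 with Col4a6, 0.79 for Col1a1 with Col1a2 and 0.55 for Col9a2 with Col9a3. It was -0.20 for Col5a1 with Col5a2, -0.39 for Col6a1 with Col6a3 and -0.13 for Col6a2 with Col6a3, so r of these 3 pairs was not positive without those libraries. Leaving out the farthest libraries also narrows the range of the first gene, and 5 libraries place r only loosely. Of the 14 ratios compared between groups, that of Col5a1 to Col5a2 had the lowest p, at 0.961 ± 0.194 in CNTR and 0.676 ± 0.0665 in PAMH F3 (exact permutation p = 0.0286, adjusted p = 0.4).

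**Figure D5:**
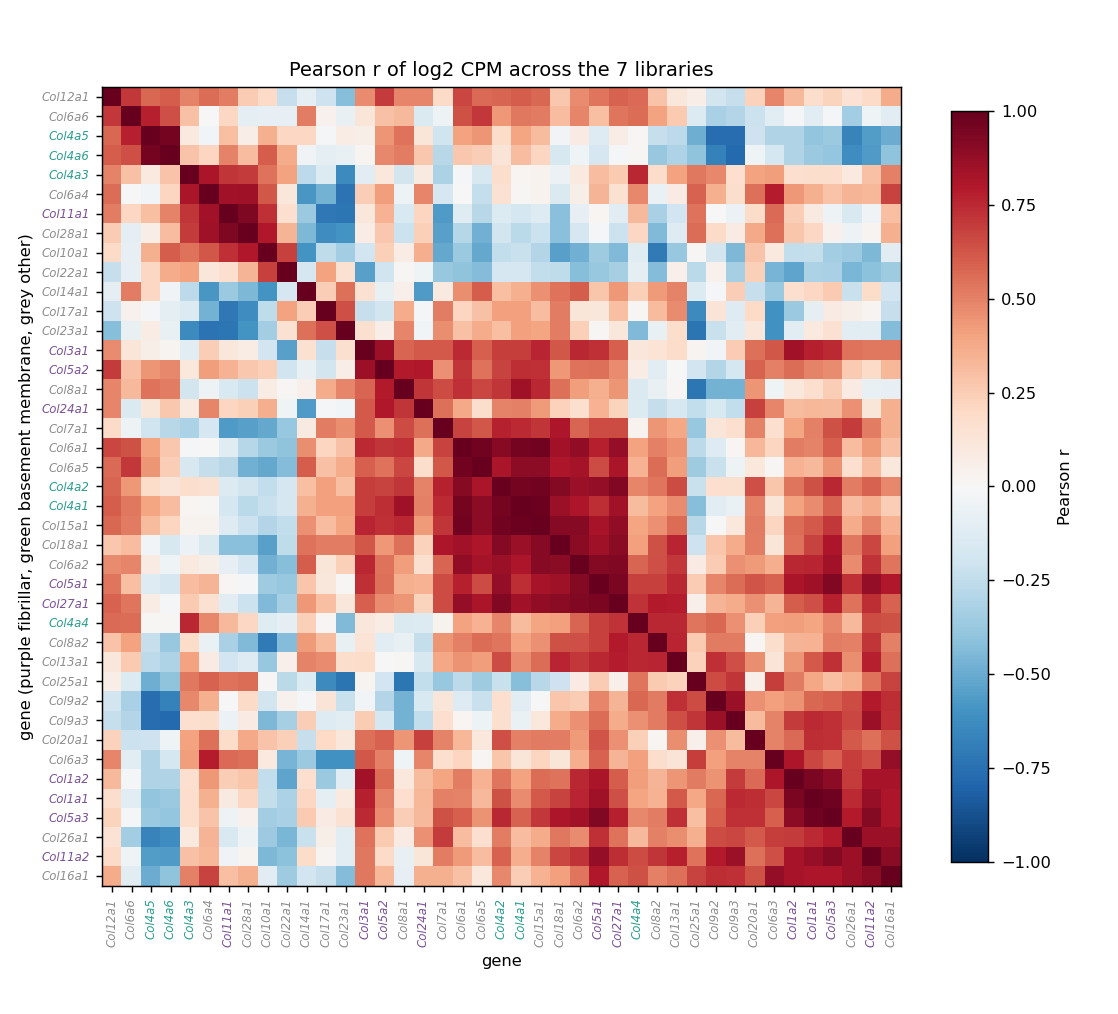
Pearson's r of log2 CPM across the 7 libraries for all pairs of the 41 tested collagen genes, with rows and columns ordered by average linkage and labels colored by class. A block around Col6a1, Col4a1, Col4a2 and Col15a1 and another around Col1a1, Col1a2 and Col5a3 show high values, and Col4a5 and Col4a6 lie apart from both.

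Over all 820 pairs of tested collagen genes the median r was 0.31, ranging from -0.78 to 0.98. It was 0.60 over the 45 fibrillar pairs and 0.28 over the 15 basement membrane pairs. The genes most like Col4a1 across the 7 libraries were Col15a1 (r = 0.98), Col4a2 (0.96) and Col6a1 (0.95), which belong to 3 different classes. Those most like Col1a1 were Col5a3 (0.97), Col1a2 (0.94) and Col11a2 (0.87). Col3a1 was most like Col5a2 (0.86) and Col1a2 (0.84), and Col8a2 most like Col27a1 (0.79), Col13a1 (0.76) and Col4a4 (0.76). Of the 40 other collagen genes, 8 had r above 0.8 with Col4a1 (20%), against 1.94% of all other genes tested, and 5 had r above 0.8 with Col1a1 (12.5%), against 4.67%. For Col8a2 it was 0 of 40 (0%), against 1.92%. These values describe 7 libraries that also share differences in GC slope, and they carry no test.

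Collagen chains are modified, folded, trimmed and crosslinked by a dedicated set of proteins. Of 38 such biosynthesis genes, all tested, 3 were higher and 4 lower in PAMH F3 at an unadjusted p under 0.05. The shares of all genes tested were 3.75% and 3.89%, and 0 biosynthesis genes were called (median log2 fold change -0.01). Without surrogate variables 1 was higher and 1 lower, beside 1.11% and 2.84% of all genes tested. The values below are from the fit with surrogate variables. Plod1, a lysyl hydroxylase, was at 66.7, 88.0 and 85.6 CPM in CNTR and at 81.1, 89.6, 87.6 and 89.6 CPM in PAMH F3 (log2 fold change 0.21 ± 0.05, groups overlapping). Serpinh1, the collagen chaperone HSP47, was at 667, 985 and 829 CPM and at 623, 731, 669 and 657 CPM, with -0.18 ± 0.07, and CNTR replicate 2 was again the highest. Tll1, a protease that removes procollagen ends, was higher without overlap, at 4.97, 5.13 and 5.04 CPM against 8.81, 5.96, 8.34 and 6.52 CPM (0.55 ± 0.19, exact permutation p = 0.0571). Loxl2, a crosslinking lysyl oxidase, was at 125, 102 and 79.8 CPM and at 106, 69.5, 53.3 and 78.0 CPM (-0.55 ± 0.21), with CNTR replicate 1 and PAMH F3 replicate 1 at the top. Pcolce2, an enhancer of that trimming, was at 4.49, 2.01 and 1.80 CPM and at 2.47, 2.20, 1.81 and 1.13 CPM (-0.68 ± 0.24). Its difference turned on CNTR replicate 1, since it was 0.02 without that library. By edgeR the adjusted p values of these 5 genes were between 0.511 and 0.640. The other 2 genes with an unadjusted p under 0.05 were Adamts2, another procollagen protease, higher at 0.26 ± 0.11 on the log2 scale, and P3h4, a member of the prolyl 3-hydroxylase family, lower without overlap at -0.14 ± 0.06 (exact permutation p = 0.0571).

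Of 12 collagen receptors and uptake genes, 11 were tested, 1 (Itga2, an integrin chain that binds collagen, 0.26 ± 0.11) was higher at an unadjusted p under 0.05, beside 3.75% of all genes tested in that direction, and 0 were called (median 0.00). Of 27 matrix partners, all tested, 3 were higher and 2 lower, beside 3.75% and 3.89% of all genes tested, and 0 were called (median -0.08). Without surrogate variables 0 partners were higher and 2 lower, beside 1.11% and 2.84% of all genes tested. In that fit 0 receptor and uptake genes had an unadjusted p under 0.05. Tnxb, tenascin-X, which binds collagen fibrils, was at 80.4, 84.0 and 77.0 CPM in CNTR and at 77.2, 38.6, 38.8 and 34.6 CPM in PAMH F3. PAMH F3 replicate 1 lay within the range of CNTR, and the other 3 lay far below it. The log2 fold change was -0.84 ± 0.29 (edgeR, adjusted p = 0.599). Without PAMH F3 replicate 1 it was -1.10 (edgeR, adjusted p = 0.00370), in a fit that called 37 of the 18570 genes tested. Since the library left out is the one within the range of CNTR, leaving it out widens the difference, and this value is no separate evidence. Thbs2, a thrombospondin that affects fibril assembly, was at 24.7, 32.9 and 32.3 CPM and at 41.0, 33.7, 31.0 and 34.7 CPM (0.30 ± 0.12). The laminin chain Lama1 was at 192, 214 and 230.4 CPM and at 278, 222, 218 and 272 CPM (0.23 ± 0.09). The laminin chain Lamc3 was at 28.9, 30.4 and 20.95 CPM and at 23.7, 20.4, 20.002 and 20.4 CPM (-0.35 ± 0.13). Pxdn, the peroxidase that crosslinks type IV collagen, was at 203, 209 and 262 CPM and at 254, 246, 221 and 261 CPM (0.15 ± 0.06). The groups overlapped for all 5 partner genes, and the last 4 had adjusted p values between 0.599 and 0.641 by edgeR.

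Annotated genes overlap 28 of the 44 collagen genes, of which 6 are overlapped by a gene with a mean of at least 1 CPM. Besides Col10a1, Col20a1 overlaps BX649560.1 on the same strand, Col18a1 overlaps Slc19a1 on the opposite strand, and Col26a1 overlaps Gm20485 on the same strand (between 32 and 162 counts, against between 312 and 723 for Col26a1), so the counts of these genes are less certain. The remaining 2 of the 6 are Col4a1 and Col4a2, which overlap each other by 22 bases.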

How the data were processed

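RNA-seq libraries of the ovaries of 3 CNTR and 4 PAMH F3 mice were compared. The authors prepared poly(A) RNA with a stranded kit, aligned single-end reads to mm10 by STAR 2.5.3a and counted uniquely aligned reads in union mode with HTSeq 0.6.1p1; the strand setting and the Ensembl release are not given in the sources used here. The deposited values are raw counts per gene, without normalization. The 5 HTSeq summary lines were left out, and reads that aligned more than once made up between 37.7% and 40.7% of a library. Of the 55487 identifiers, 55394 were matched to GENCODE M21.

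TMM factors were taken over all gene rows. The 18779 genes kept by filterByExpr (minimum count 10) were tested with the quasi-likelihood F test of edgeR 4.0.16 in R 4.3.3, with 2 surrogate variables from svaseq (sva 3.50.0, number estimated with num.sv), which left 3 residual degrees of freedom. Benjamini-Hochberg adjustment covered all genes tested. Alternatives were 0, 1 or 3 surrogate variables, DESeq2 1.42.0, median-ratio size factors, other filters, robust fitting, a replicate block, a GC and length correction, and each library left out. The correction without CNTR replicate 2 and the longest coding transcript as length were chosen after seeing the data. Tests were also run on simulated counts with a single hidden factor. Those differ from the real libraries, so they do not show how the tests behave here. P values of the fits without surrogate variables and of the permutation tests between groups are set against the spread between mice. Those of the fits with surrogate variables are set against what is left of that spread once these variables are taken out.

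Collagen genes and gene lists were chosen with earlier results of these data known. Values are given for the 5 fibrillar genes with the highest level per kilobase, all 6 basement membrane genes, the 8 highest of the other classes, every gene with an unadjusted p under 0.05 or without overlap between groups, and at most 10 such genes from the biosynthesis, receptor and partner lists (13 met the rule). Other genes named, such as Col8a1, Col27a1, Adamts2, P3h4 and Itga2, were chosen after their values were seen. Motifs were searched on both strands. Protein sequences were not analysed here.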

Additional observations from a re-analysis of the deposited data

Results flagged for a closer look

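In 5 of 55 sets of 4 PAMH F3 values (the collagen genes tested, the 10 named list genes and the summed levels of all collagen genes and of the 3 main classes), 1 library lay far from the others by Dixon's criterion at the 95% level (gap to the nearest value over the range), where chance gives about 1 in 20. Of these, 4 concerned PAMH F3 replicate 1, which was the highest each time. Col15a1 was at 102.7 CPM in that library and between 48.9 and 55.5 CPM in the other 3. Col27a1 was at 65.0 CPM, the others between 42.0 and 45.3 CPM. Tnxb was at 77.2 CPM, the others between 34.6 and 38.8 CPM, and Lamc3 was at 23.7 CPM, the others between 20.002 and 20.4 CPM. In PAMH F3 replicate 2, Col16a1 was at 59.0 CPM, the others between 52.9 and 53.9 CPM, a gap that only just passed the criterion.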

How the results depend on the processing

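No collagen gene was called in 25 of the 27 fits, by edgeR, and DESeq2 called 1 (Col8a2) with 2 surrogate variables and 1 without them (adjusted p = 0.0144 and 0.0194). The number of genes at an unadjusted p under 0.05, 6 as reported, was 11 without a filter on low counts (beside 5.76% of all genes), 3 with a replicate block (2.38%) and 3 with the GC and length correction without CNTR replicate 2 (3.23%). With each library left out in turn it ranged from 3 to 16 with surrogate variables and from 2 to 12 without them (10 without CNTR replicate 3), the median log2 fold change from -0.24 to 0.01 and from -0.32 to -0.04, and the number of genes without overlap from 2 to 8. Leaving out CNTR replicate 1 or CNTR replicate 3 gave 8 such genes each, beside 15.5% and 13.3% of all genes, and leaving out PAMH F3 replicate 1 gave 7, beside 9.39%. Leaving out CNTR replicate 2 or PAMH F3 replicate 2 gave 4 each, beside 9.81% and 6.09%. Directions turned for Col6a4 (range -0.24 to 0.37 with each library left out, below 0 without CNTR replicate 1, and without surrogate variables -0.22 in that setting, -0.015 without PAMH F3 replicate 1 and -0.0074 without PAMH F3 replicate 4), and for Pcolce2 (range -0.83 to 0.023, and 0.0048 without surrogate variables when CNTR replicate 1 was left out). With group means taken out, r turned to 0.24 for Col8a1 with Col8a2 and 0.14 for Col11a1 with Col11a2. After the GC and length correction, 3 chain pairs passed, and r turned to -0.18 for Col6a1 with Col6a3 and 0.075 for Col11a1 with Col11a2. With the 2 farthest libraries left out, 0 passed, in a design of 5 libraries where a single pair cannot go below an adjusted p of 0.117, and r turned to -0.20 for Col5a1 with Col5a2, -0.39 for Col6a1 with Col6a3 and -0.13 for Col6a2 with Col6a3. Same-numbered CNTR and PAMH F3 libraries correlated at 0.10, 0.10 and -0.25 in their deviations from the group means, and differently numbered ones at between -0.24 and 0.28. A pairing by number was thus not seen, though so few libraries cannot exclude one. The replicate block is given for this reason only here. The cause of these changes was not tested. With 3 and 4 mice, the smallest exact permutation p is 0.0286, and genes with few counts, such as Col10a1, are limited by depth.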
